A study of Mus musculus with 10 samples.

Results

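The 4 Hox gene clusters of the mouse were examined for sites of open chromatin mapped by FAIRE-seq. Formaldehyde-crosslinked chromatin is sheared in this assay, and after phenol-chloroform extraction the DNA of the aqueous phase, poor in nucleosomes, is sequenced. A site was a member if it overlapped one of 4 intervals on build mm9, which are chr6:52100001-52220000 (Hoxa), chr11:96050001-96235000 (Hoxb), chr15:102745001-102870000 (Hoxc) and chr2:74495001-74610000 (Hoxd). The intervals hold 38 Hox genes named for this purpose and span 120 kb, 185 kb, 125 kb and 115 kb. Of 1816946 sites in 4 lists, 850 were members. They comprised 270 of 441855 sites in embryonic stem cells (ESC), 345 of 387312 in epiblast stem cells (EpiSC), 54 of 555868 in neural progenitors (NSC) and 181 of 431911 in embryonic fibroblasts (MEF). The intervals are plain coordinates, but the clusters were selected on earlier results of these lists of sites, by a criterion that is not stated, so the numbers of sites are given as a description.

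The ESC were E14 cells on gelatin in N2/B27 medium with 1 µM of the MEK inhibitor PD032590, 3 µM of the GSK3 inhibitor CH99021 and 1000 U/ml LIF, which keeps them in the ground state of pluripotency. The EpiSC were of the E3 line, expanded on mitomycin C-treated MEF feeders in MEF-conditioned medium with 5 ng/ml FGF2, and kept off the feeders on fibronectin for the 2 days before crosslinking. They stand for the primed state of the epiblast after implantation. The NSC were ES-derived neural progenitor cells kept in N2B27 medium with 10 ng/ml each of FGF-2 and EGF, and the MEF came from E16.5 embryos and grew in DMEM with 10% FBS. No genotype is given for the 4 cell types. The MEF samples bear 1 label that speaks of NSC chromatin. Both their title and their cell type say fibroblasts, and this reading is kept. The study has 10 samples in 5 groups of 2, including sheared genomic DNA as a control, and 1 list per cell type, filed with replicate 2, was analysed. There was therefore no replicate check and no test between cell types, and the read depth behind each list is unknown. Marker genes of the cell types were not looked up, for lack of mm9 gene positions.

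Hox genes encode homeodomain transcription factors that give the cells of the embryo their position along the head-to-tail axis. Within a cluster the genes stand in the order of the paralogue groups. Genes of the low-numbered groups, such as Hoxb1 and Hoxa2, act in the hindbrain. Those of the middle groups, such as Hoxc6 and Hoxb8, act in the trunk, and those of the highest groups, such as Hoxa13 and Hoxd13, act in the limb ends, the tail and the urogenital tract. In pluripotent cells the clusters are known as large targets of Polycomb repressors, and during differentiation they are opened step by step from the low-numbered end. In the RefSeq gene table, which is on build GRCm38.p6 and was used only for the order of genes, Hoxa runs from Hoxa2 at low coordinates to Hoxa13. The other clusters run from Hoxb13, Hoxc13 and Hoxd13 at low coordinates to Hoxb1, Hoxc4 and Hoxd1. Sorted by lowest coordinate in this table, Hoxb3 comes before Hoxb4 and Hoxd3 before Hoxd4, out of the order of groups. All 38 genes were in the table. The table's build is not that of the lists, so no site was assigned to a single gene, and positions are given from the group 13 end of each cluster.

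Promoter sequence is shown for 1 gene per cluster, as the entry richest in CG and not as a typical gene start. A total of 22 of the 38 genes had an entry in the RefSeq promoter table (GRCm38.p6), with 24 promoters in all. Most of these belong to Hoxa and Hoxd, so the values below say little of Hoxb and Hoxc. The dinucleotide CG, which reads the same on both strands, occurred a median of 12.5 times in the 250 bases before the start (range 2 to 35), against 6 in all 32851 promoters of the table, and 31.5% of all promoters had as many as the Hox median or more. At least 1 CG was present in 92.1% of all promoters. The G+C content of Hox promoters had a median of 58.6% (range 40.4 to 80.0), against 52.4% in all promoters. These 250 bases are printed for the promoter richest in CG in each cluster (Hoxc4 was the only Hoxc entry), 5′ to 3′ on the strand of the gene, with CG in capitals. Hoxa13 lies on chromosome 6 (minus strand), Hoxb4 on chromosome 11 (plus), Hoxc4 on chromosome 15 (plus) and Hoxd13 on chromosome 2 (plus).
Hoxa13: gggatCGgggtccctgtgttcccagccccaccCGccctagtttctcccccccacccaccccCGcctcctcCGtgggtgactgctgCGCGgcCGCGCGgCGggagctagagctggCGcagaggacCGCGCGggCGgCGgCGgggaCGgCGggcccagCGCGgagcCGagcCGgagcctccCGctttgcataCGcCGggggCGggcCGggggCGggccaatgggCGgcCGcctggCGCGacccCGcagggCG
Hoxb4: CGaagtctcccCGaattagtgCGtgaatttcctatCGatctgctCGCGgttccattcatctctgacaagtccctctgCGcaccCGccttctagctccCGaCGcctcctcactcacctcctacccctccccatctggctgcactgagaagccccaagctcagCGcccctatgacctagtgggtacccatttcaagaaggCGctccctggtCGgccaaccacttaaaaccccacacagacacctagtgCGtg
Hoxc4: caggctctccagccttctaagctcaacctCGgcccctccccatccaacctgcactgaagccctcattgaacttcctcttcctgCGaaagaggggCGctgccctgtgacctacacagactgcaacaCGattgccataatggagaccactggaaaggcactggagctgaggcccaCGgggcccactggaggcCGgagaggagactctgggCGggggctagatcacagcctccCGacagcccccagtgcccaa
Hoxd13: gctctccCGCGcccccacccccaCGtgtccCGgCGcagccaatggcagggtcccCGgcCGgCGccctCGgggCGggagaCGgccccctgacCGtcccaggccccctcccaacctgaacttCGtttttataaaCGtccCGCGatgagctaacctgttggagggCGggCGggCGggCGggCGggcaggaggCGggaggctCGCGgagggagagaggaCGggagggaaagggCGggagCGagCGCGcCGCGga
The number of CG differed among these starts, from 35 in Hoxa13 and 31 in Hoxd13 to 14 in Hoxb4 and 8 in Hoxc4. Whether a FAIRE site lies on any of them was not tested, since the builds differ.

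Both pluripotent cell types had open sites throughout all 4 clusters, and NSC had them in number only at Hoxa. By number of sites MEF lay in between in each cluster. In Hoxa, 64 sites belonged to ESC, 70 to EpiSC, 39 to NSC and 47 to MEF. In Hoxb, the cluster with the most sites, ESC had 92, EpiSC 133, NSC 4 and MEF 66. Hoxc held 59 ESC, 68 EpiSC, 4 NSC and 36 MEF sites. Hoxd held 55 ESC, 74 EpiSC, 7 NSC and 32 MEF sites. EpiSC thus had the most sites in each cluster, although its list is the shortest, and NSC the fewest, although its list is the longest. The map of sites shows this as dense rows of ESC and EpiSC sites and all but empty NSC rows in Hoxb, Hoxc and Hoxd.

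**Figure D1:**
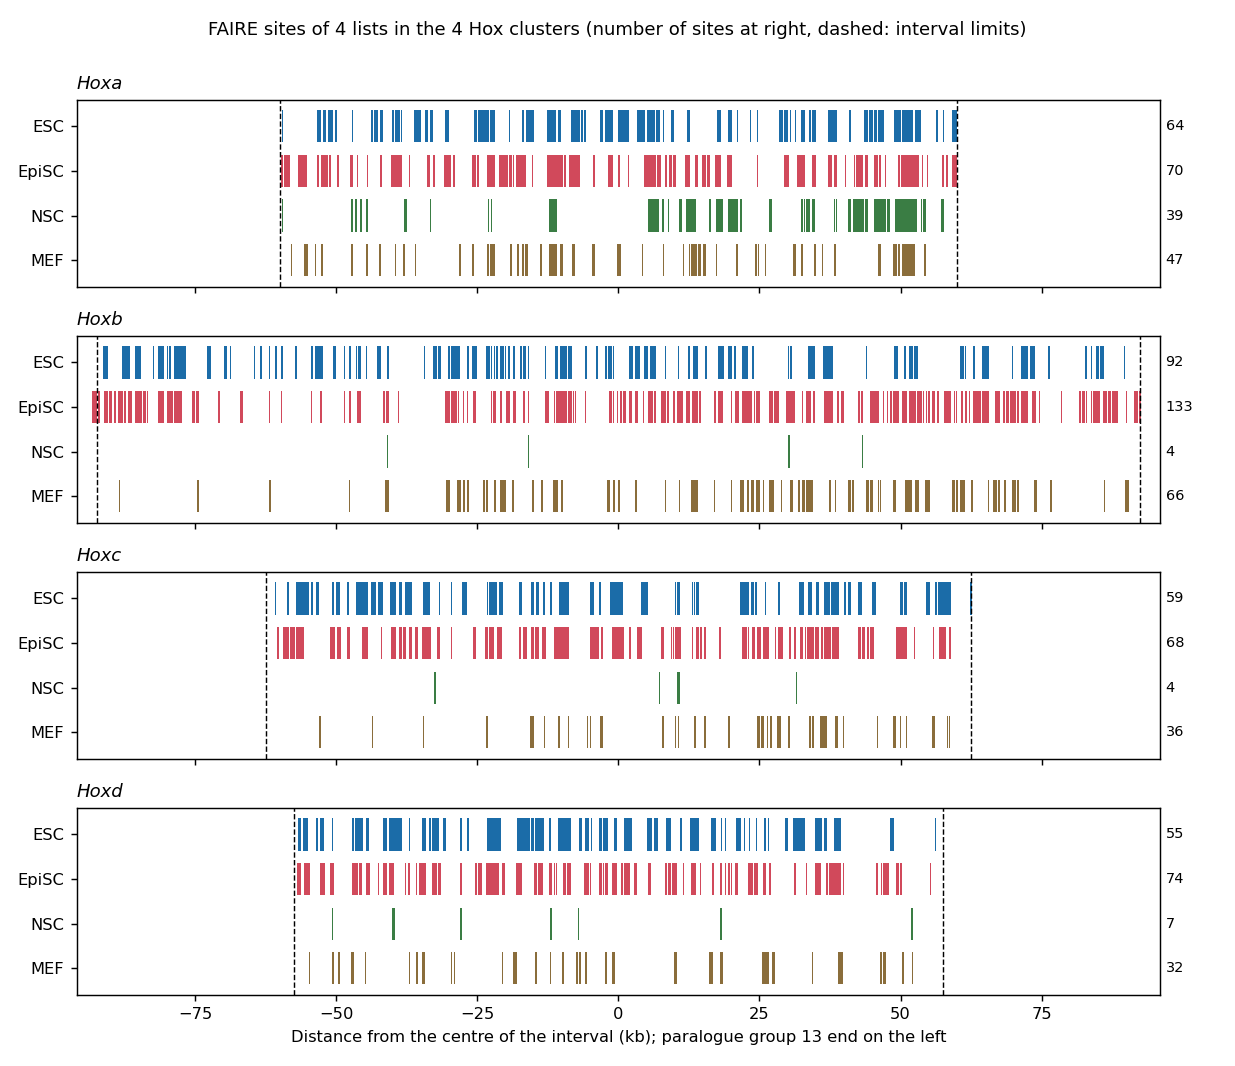
Position of every FAIRE site in the 4 Hox clusters. The x axis is the distance from the centre of each interval in kb, with the group 13 end on the left; each bar is 1 site of the ESC, EpiSC, NSC or MEF list, dashed lines are the interval limits, and the number of sites stands at the right. NSC sites number 39 in Hoxa and 4, 4 and 7 in Hoxb, Hoxc and Hoxd.

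The share of bases lying in sites takes the width of sites into account. In ESC, sites covered 37.0% of Hoxa, 27.6% of Hoxb, 32.8% of Hoxc and 34.0% of Hoxd, against 9.14% of all autosomes. In EpiSC they covered 38.5%, 39.0%, 36.7% and 34.5%, against 7.02% of autosomes. Each pluripotent list thus covered at least 27.6% of every cluster. In MEF they covered 17.8%, 16.4%, 10.4% and 10.8%, against 6.69% of autosomes, so that Hoxa and Hoxb stood higher than Hoxc and Hoxd. In NSC they covered 21.8% of Hoxa but 0.466% of Hoxb, 0.990% of Hoxc and 1.79% of Hoxd, against 10.0% of autosomes. Each of the latter 3 values is below the NSC share of autosomes, and the Hoxa value is above it.

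The clusters were then set beside all autosomal windows of their own length. An EpiSC share as high as that of Hoxb was reached in 5 of 13354 windows of 185 kb (0.0374%), and for Hoxa, Hoxc and Hoxd in 0.0971%, 0.177% and 0.316% of windows. For ESC the corresponding shares of windows were 3.41% for Hoxa, 8.38% for Hoxb, 5.19% for Hoxc and 4.62% for Hoxd, so the clusters stood less far out in that list. For MEF they were 3.19%, 3.79%, 19.6% and 17.8%. In NSC 10.3% of windows were as covered as Hoxa, whereas 93.6% were as covered as Hoxb, 87.8% as Hoxc and 78.6% as Hoxd. A share of at least 2 times the autosomal share was reached by all 4 clusters in ESC and in EpiSC. Among windows of the length of Hoxa, Hoxb, Hoxc and Hoxd, 19.0%, 19.3%, 19.3% and 19.1% reached it in ESC, and 15.8%, 15.4%, 15.7% and 15.7% in EpiSC. In MEF 2 clusters reached it, Hoxa and Hoxb, where 9.66%, 8.67%, 9.44% and 9.70% of windows did. In NSC only Hoxa did, beside 13.1%, 12.3%, 12.9% and 13.0% of windows. EpiSC sites covered 13.2% of the whole of chromosome 11, which carries Hoxb, and the EpiSC share of Hoxb was 2.95 times that value. The ratio of cluster to chromosome was 6.83 for Hoxa, 4.63 for Hoxc and 4.45 for Hoxd in EpiSC. In ESC it was 4.69, 1.87, 3.69 and 3.44 for Hoxa, Hoxb, Hoxc and Hoxd, so Hoxb stayed below 2. For MEF the 4 ratios were 3.05, 1.79, 1.47 and 1.45, and for NSC 2.48, 0.0355, 0.0911 and 0.177.

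The 200 kb on each side served as local background. In both pluripotent lists the ratio of cluster to flanks was highest at Hoxd, whose flanks were the least covered of the 4. The covered share of Hoxd itself was not the highest in either list. ESC sites covered 34.0% of Hoxd and 7.02% of its flanks, a ratio of 4.85, and EpiSC sites 34.5% and 7.87%, a ratio of 4.38. The ratio for MEF was 1.5, below those of Hoxa and Hoxb, with a flank share of 7.23%, and that for NSC was 0.245, with 7.31%. By number of sites in place of covered bases the ESC ratio of Hoxd was 2.55.

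Hoxa was richer than its flanks in ESC (ratio 2.16), EpiSC (2.65) and MEF (1.91). In NSC the ratio was 1.16 by covered bases and 0.884 by number of sites, so its side of 1 depends on the measure, and the flanks of Hoxa were unlike each other. The flank beyond the low-numbered end was covered to 33.8% by NSC sites, more than the cluster, and the flank beyond the group 13 end to 3.63%. In the other lists the 2 flanks of Hoxa were closer, at 15.1% and 19.1% in ESC, 15.4% and 13.6% in EpiSC, and 8.65% and 9.98% in MEF.

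Hoxb lay in a region that was itself open in the pluripotent lists. ESC sites covered 34.2% of the flank beyond Hoxb13, more than the 27.6% of the cluster, and 13.0% of the flank beyond Hoxb1, which gave a ratio of 1.17 over both. With flanks of 500 kb the ESC ratio was 0.979, on the other side of 1. EpiSC sites covered 25.8% and 15.4% of these flanks, a ratio of 1.89, and MEF sites 11.9% and 9.10%, a ratio of 1.57. NSC sites covered 6.93% and 1.72% of the flanks and 0.466% of the cluster, a ratio of 0.108. With flanks of 100 kb the NSC ratio was 0.252 and with flanks of 500 kb 0.0553.

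At Hoxc the ESC ratio was 1.67, the EpiSC ratio 1.88 and the MEF ratio 1.29. The MEF value turned to 0.858 when the 50% of the list with the highest scores was used. In NSC the ratio was 0.0690, with 9.74% of the flank beyond Hoxc13 and 18.9% of the flank beyond Hoxc4 covered. With flanks of 100 kb it was 0.137. The NSC ratios of Hoxb, Hoxc and Hoxd stayed at or below 0.318 under every setting tried.

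**Figure D2:**
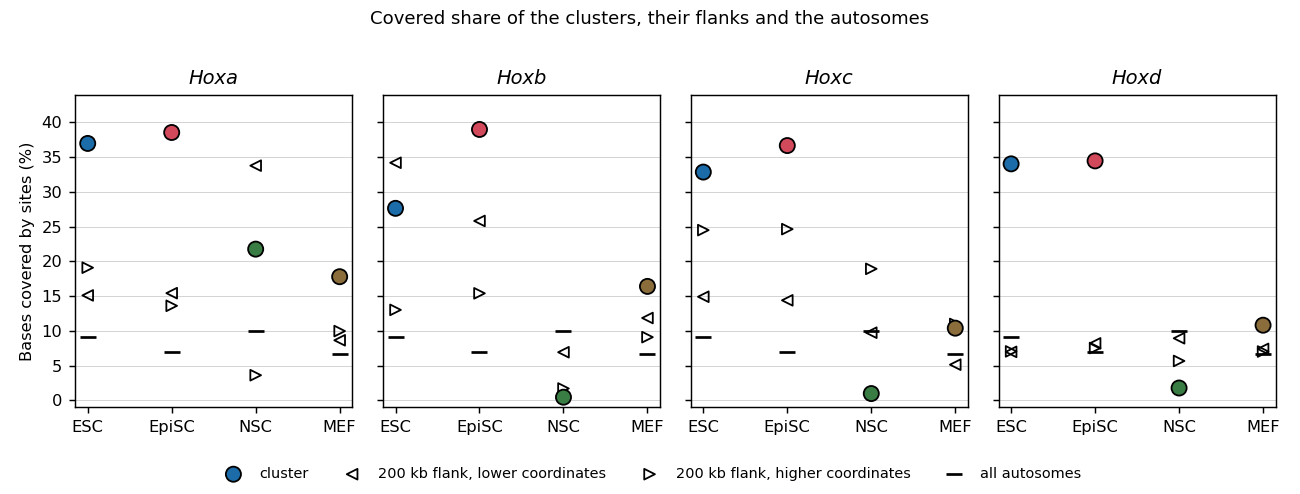
Share of bases covered by sites (y axis, %) in each Hox cluster (filled circles), its 200 kb flanks at lower and higher coordinates (triangles) and all autosomes (bars), for the ESC, EpiSC, NSC and MEF lists. The NSC circles of Hoxb, Hoxc and Hoxd lie at 0.466%, 0.990% and 1.79%, below the autosomal bar at 10.0%, while the ESC and EpiSC circles lie between 27.6% and 39.0%.

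The limits of the intervals are fixed coordinates and did not always fall on an edge of the open domains. In the 5 kb just inside the 8 limits, ESC sites covered a mean of 18.8%, EpiSC sites 39.1%, NSC sites 1.60% and MEF sites 5.82%. Just outside, over 5 kb, the means were 26.8%, 30.6%, 5.31% and 4.80%. Beyond the Hoxd13 end open chromatin went on, with 34.7% of the adjacent 5 kb covered in ESC and 50.1% in EpiSC, while beyond Hoxd1 neither list had a site in the adjacent 5 kb. A single ESC site, 3 EpiSC sites and none in NSC or MEF crossed a limit. With the intervals shortened by 5 kb at both ends, every ratio of cluster to flanks stayed within 1.5 times its value.

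Open sites were not spread evenly along the clusters, and the cell types differed in where they lay. Each interval was divided into 4 segments of equal length, numbered from the group 13 end. In Hoxa, NSC sites covered 8.71% of segment 1, 5.89% of segment 2, 30.3% of segment 3 and 42.2% of segment 4, next to the low-numbered genes such as Hoxa2, a hindbrain gene. The 4 segments held 9, 3, 10 and 17 NSC sites. In segment 4 the NSC share was close to those of ESC (42.7%) and EpiSC (40.6%), which covered 30.1% and 34.2% of segment 1. NSC openness in Hoxa therefore lay mainly in the part away from Hoxa13, and it went on into the flank on that side. MEF sites covered 10.9%, 24.4%, 16.0% and 19.9% of the segments of Hoxa.

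In Hoxb, the segment shares of ESC and EpiSC were close toward Hoxb13 and parted toward Hoxb1. Within segment 1 the 2 lists differed in both directions. In the outermost 5 kb at the Hoxb13 end, EpiSC sites covered 62.1% and ESC sites 26.6%. In the 5 kb around -55 kb from the centre, EpiSC sites covered 9.28% and ESC sites 39.5%. EpiSC sites covered 28.6%, 28.0%, 48.2% and 51.1% of the successive segments, with 23, 27, 36 and 46 sites. ESC sites covered 29.0%, 32.8%, 28.1% and 20.6%, with 24, 31, 19 and 18 sites. By whole segments, the EpiSC share thus exceeded that of ESC in the 2 segments toward Hoxb1, a gene of the early hindbrain and primitive streak. MEF sites covered 2.59% of segment 1, then 16.8%, 24.9% and 21.3%. NSC sites covered none of segments 1 and 4, 0.569% of segment 2 and 1.30% of segment 3.

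In Hoxc the MEF sites were again few at the group 13 end, with 2.83% of segment 1 covered by 3 sites, 8.60% of segment 2, 15.7% of segment 3 and 14.4% of segment 4, toward Hoxc4. ESC sites covered 41.1%, 32.4%, 22.5% and 35.4% of the segments of Hoxc, and EpiSC sites 39.8%, 35.5%, 34.1% and 37.3%. Segment 1 of Hoxc, toward Hoxc13, a gene of hair and nail, was thus widely covered in both pluripotent lists and nearly bare in MEF.

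In Hoxd both pluripotent lists fell off toward Hoxd1. ESC sites covered 36.3%, 46.9%, 31.2% and 21.7% of the segments, and EpiSC sites 39.7%, 41.3%, 33.7% and 23.1%. MEF sites covered 11.0%, 12.8%, 11.4% and 8.09%, without the low share of segment 1 seen in Hoxb and Hoxc. NSC sites covered between 0.678% and 3.75% of each segment.

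**Figure D3:**
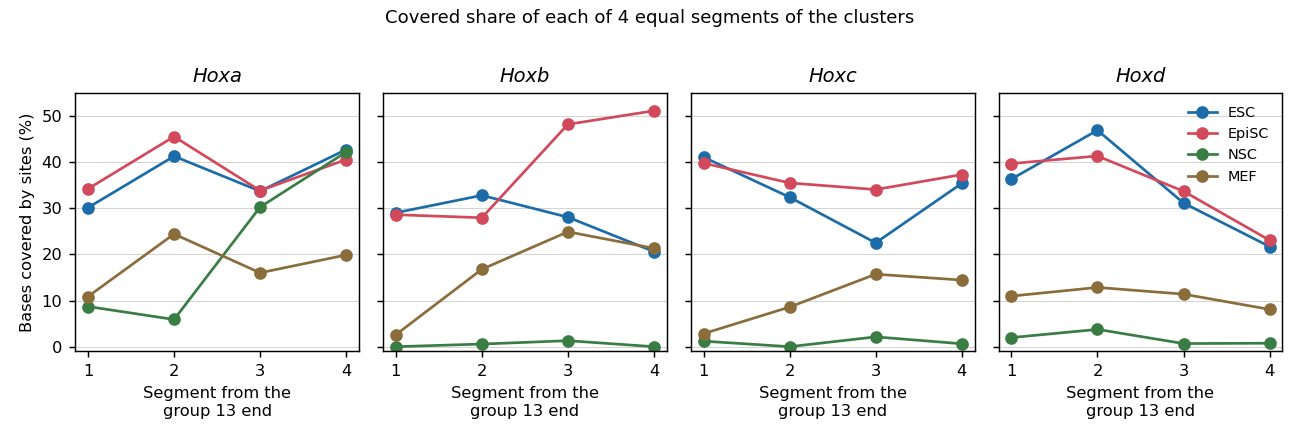
Share of bases covered by sites (y axis, %) in the 4 equal segments of each Hox cluster, counted from the group 13 end (x axis), for ESC, EpiSC, NSC and MEF. The NSC line of Hoxa goes from 8.71% in segment 1 to 42.2% in segment 4, the EpiSC line of Hoxb from 28.6% to 51.1%, and the MEF lines of Hoxb and Hoxc start at 2.59% and 2.83%.

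Stretches without a site of one list show the same contrast at larger scale. The longest NSC-free stretch touching Hoxb ran for 112.8 kb, from 95988771 to 96101521 on chromosome 11, and took in the Hoxb13 end of the interval and the adjoining flank. The longest at Hoxc was 55.2 kb (102719680 to 102774851 on chromosome 15), of which the part before 102745001 lay in the flank beyond Hoxc13. At Hoxd it was 33.7 kb (74570774 to 74604425 on chromosome 2). In Hoxa the longest was 16.2 kb, from 52154793 to 52170964 on chromosome 6. In ESC and EpiSC no such stretch exceeded 8.65 kb in any cluster, and in MEF they ranged from 7.98 kb at Hoxa to 24.4 kb at Hoxb. These stretches of one list are given at full length, also where they pass a limit. That of MEF at Hoxb, from 96233035 to 96257422, lay mostly in the flank, since the interval ends at 96235000. The longest stretch without a site in any list was 1924 bp in Hoxa, 4485 bp in Hoxb, 3349 bp in Hoxc and 5592 bp in Hoxd (74592546 to 74598137 on chromosome 2). Hoxa was therefore the most closely filled of the 4, with 34.7% of its bases in no list, against 45.8% of Hoxb, 47.7% of Hoxc and 46.8% of Hoxd.

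The Hox sites of the 4 lists were compared for overlap of at least 1 bp. Of the ESC sites in the clusters, 73.0% overlapped an EpiSC site (exact 95% interval 67.2 to 78.2), against 40.1% of all ESC sites. Of the EpiSC sites, 59.4% (54.0 to 64.6) overlapped ESC, against 45.0% of all. Counting error alone enters these intervals, and adjacent sites depend on each other. Where a list covers more of a region, overlap with it is more frequent, and the covered shares above stand beside these values. By bases, 39.1% of what either pluripotent list covered in the clusters was common to both, against 23.7% on autosomes.

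MEF sites in the clusters mostly fell on sites of the pluripotent lists. A total of 71.8% overlapped EpiSC (64.7 to 78.2), against 26.6% of all MEF sites, and 55.8% overlapped ESC (48.2 to 63.2), against 25.0%. With NSC 15.5% overlapped (10.5 to 21.6), against 40.1% of all MEF sites. This share was 42.6% in Hoxa alone and 5.97% without Hoxa. MEF sites overlapped EpiSC in each cluster, in 63.8% of cases in Hoxa, 78.8% in Hoxb, 72.2% in Hoxc and 68.8% in Hoxd. By bases, 58.4% of what MEF sites covered lay in EpiSC sites, which cover 37.4% of the 4 clusters, and 42.7% in ESC sites, which cover 32.2%. A share of 13.6% lay in NSC sites, which cover 5.55%. EpiSC had been grown on MEF feeders until 2 days before crosslinking, and the part of this in the overlap of MEF with EpiSC was not tested. Conversely 39.1% of EpiSC sites (33.9 to 44.5) and 38.5% of ESC sites (32.7 to 44.6) in the clusters overlapped MEF, against 29.1% and 24.4% of the whole lists. Among the best-scoring 50% of every list these shares were 27.6% and 22.2%. The shares over all sites were not computed for that 50%, so the whole-list values are no background for them.

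By share of sites, overlap with NSC was the lowest, and NSC is also the list that covers the least of the clusters (5.55%). NSC sites overlapped 13.3% of ESC sites (9.52 to 18.0) and 11.0% of EpiSC sites (7.91 to 14.8), against 33.1% and 38.9% of all sites of these lists. Without Hoxa these shares were 5.34% and 3.64%. In Hoxa alone they were 39.1% of ESC sites and 40.0% of EpiSC sites, close to or above the shares of the whole lists. By bases over the 4 clusters, 9.03% of what ESC sites covered and 8.67% of what EpiSC sites covered lay in NSC sites. Both values are above the 5.55% of the clusters that NSC sites cover. The few NSC sites present were in turn often open elsewhere. Of the 54, 61.1% (46.9 to 74.1) overlapped ESC, 64.8% (50.6 to 77.3) EpiSC and 48.1% (34.3 to 62.2) MEF, against 25.3%, 26.7% and 30.5% of all NSC sites. Hoxa holds 39 of the 54, and without it the shares were 66.7%, 66.7% and 53.3% of 15 sites. In Hoxc 1 of 4 NSC sites overlapped ESC, and likewise EpiSC and MEF. ESC, EpiSC and MEF sites cover 32.2%, 37.4% and 14.2% of the clusters, against 9.14%, 7.02% and 6.69% of autosomes. The shares of all NSC sites are thus no like background.

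Over the other lists jointly, 79.6% of ESC Hox sites (74.3 to 84.3) overlapped at least 1 of them, against 60.0% of all ESC sites. In EpiSC 73.9% did (68.9 to 78.5), near the 69.3% of its whole list. The shares were 79.6% in NSC (66.5 to 89.4) against 52.2%, and 81.2% in MEF (74.8 to 86.6) against 56.4%.

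**Figure D4:**
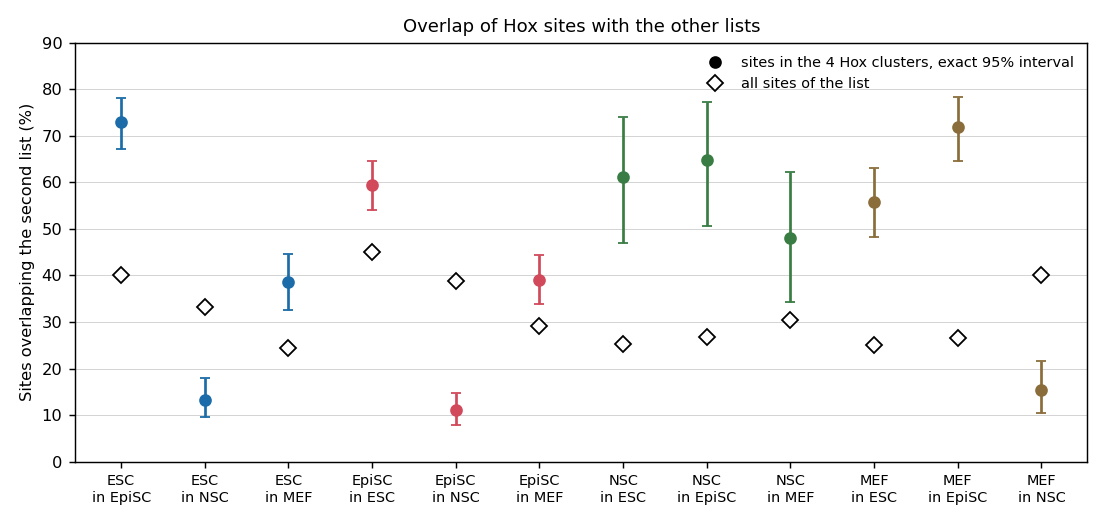
Share of Hox sites of 1 list that overlap a second list by at least 1 bp (y axis, %; filled circles with exact 95% intervals, which cover counting error only), beside the same share over all sites of the first list (open diamonds). Overlap with NSC lies below the diamond for ESC, EpiSC and MEF (13.3%, 11.0% and 15.5%), and the other 9 shares lie above theirs.

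Merging the 4 lists gave 411 regions in the clusters, each a single site or the union of sites that overlap. The largest classes were regions of EpiSC alone (90, or 21.9%, against 10.5% of all merged regions), of ESC and EpiSC (80, or 19.5%, against 5.41%) and of ESC, EpiSC and MEF (67, or 16.3%, against 1.66%). The last combination, open in all but NSC, was present in each cluster, with 10 regions in Hoxa, 29 in Hoxb, 14 in Hoxc and 14 in Hoxd. Regions of EpiSC and MEF made up 6.81% (28 regions, 16 of them in Hoxb), against 1.90% of all. Regions of NSC and MEF, the somatic pair, were rare, with 3 in the clusters (0.730%) against 6.36% of all. NSC alone accounted for 11 regions (2.68%), 8 of them in Hoxa and 3 in Hoxc, against 23.4% of all.

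Open in all 4 lists were 17 regions (4.14%, exact 95% interval 2.43 to 6.54), near the 4.05% of all merged regions. Of these 11 lay in Hoxa, 2 in Hoxb, 1 in Hoxc and 3 in Hoxd. The longest was in Hoxa, from 52106407 to 52111420 on chromosome 6, at the low-numbered end. Within it NSC had its widest site of the cluster, 3917 bp from 52107131 to 52111047 with a score of 6.93, and MEF its widest, 2331 bp from 52107422 to 52109752 with a score of 4.87. ESC had 3 sites there that made up its run of sites covering the most bases in Hoxa, 4184 bp. The longest such regions were 1643 bp in Hoxb (96172139 to 96173781), 1068 bp in Hoxc (102817435 to 102818502) and 665 bp in Hoxd (74501365 to 74502029). These lengths are those of unions, so a region need not be open in all lists along its length. Bases lying in sites of all 4 lists came to 5315 bp in the whole of Hoxa. In the whole of Hoxb, Hoxc and Hoxd they came to 180, 224 and 390 bp.

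Each site carries a score given by the authors, which was used to rank sites within a list only, since a scale shared between lists is not stated. Hox sites of the pluripotent lists ranked above the middle of their lists. The median percentile of the score within the list was 68.7 for ESC and 65.7 for EpiSC, 55.6 for NSC and 42.3 for MEF. By cluster the ESC median ranged from 61.0 in Hoxb to 80.1 in Hoxd, and the EpiSC median from 63.4 in Hoxa to 68.8 in Hoxb. In MEF it ranged from 23.6 in Hoxc to 50.1 in Hoxa, so MEF sites in Hoxc were mostly low-scoring ones. Sites in the top 5% of scores made up 8.89% of ESC (5.78 to 12.9, exact 95% interval), 8.70% of EpiSC (5.94 to 12.2), 7.41% of NSC (2.06 to 17.9) and 5.52% of MEF Hox sites (2.68 to 9.93), against 5.00% of each list.

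Hox sites of the pluripotent lists were also wider. The median width was 479 bp in both ESC and EpiSC, against 373 and 338 bp in the whole lists, 372 bp in NSC against 333 bp, and 353 bp in MEF against 323 bp. In the pluripotent lists width and score went together with sharing. ESC Hox sites in no other list had a median score of 3.22 and a width of 361 bp, those of 1 other list 4.91 and 560 bp, and those of all lists 8.74 and 680 bp. In EpiSC the scores were 3.00, 3.54 and 5.88, and the widths 338.5 bp, 512 bp and 759 bp. The whole lists show the same order, with 2.85 and 7.26 as the first and last ESC scores and 2.61 and 4.47 as those of EpiSC. Width rose with sharing in NSC Hox sites too, from 264 bp in no other list to 450 bp in all lists. In MEF Hox sites the widths were 293.5, 342, 381.5 and 345.5 bp for 0, 1, 2 and 3 other lists, with a fall at the last step. The median scores in the same order were 4.30, 4.34, 3.84 and 5.62 in NSC. They were 2.75, 2.515, 3.21 and 4.25 in MEF, so neither rose at every step. In the whole lists the first and last widths were 285 and 730 bp for NSC, and 281 and 524 bp for MEF. The Hox sites open in all lists number 19 in ESC and 18 in EpiSC.

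**Figure D5:**
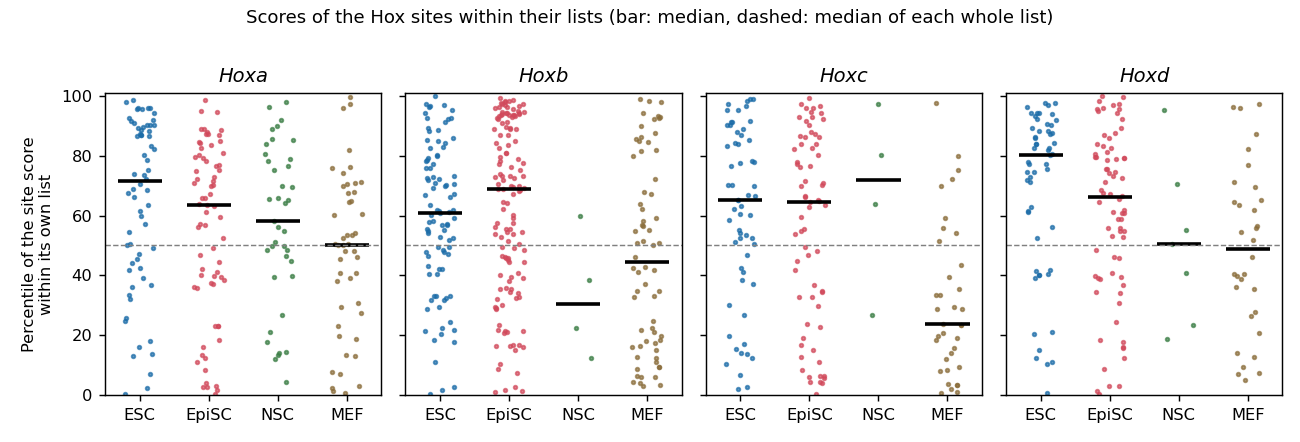
Percentile of each Hox site's score within its own list (y axis), by cluster and list; points are sites, spread sideways for legibility, black bars are medians and the dashed line is the middle of each list. ESC medians lie between 61.0 and 80.1 and EpiSC medians between 63.4 and 68.8, while the MEF median of Hoxc lies at 23.6; the NSC bars of Hoxb, Hoxc and Hoxd rest on 4, 4 and 7 sites.

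Some single sites recurred as the strongest of a cluster. In Hoxa the highest-scoring site was the same place in 3 lists, toward the Hoxa13 end. It spanned 52207001 to 52207520 in EpiSC (score 11.2, percentile 98.7), 52207048 to 52207448 in NSC (14.4, percentile 97.9) and 52207039 to 52207492 in MEF (13.2, percentile 99.5). ESC had a site there from 52207000 to 52207253 with a score of 7.25 (percentile 83.4), while its own highest lay at 52210674 to 52211505 with 13.3 and was shared with EpiSC. The place lay in segment 1 of Hoxa, of which NSC sites covered 8.71%.

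In Hoxd the highest-scoring EpiSC site was one of 380 bp, from 74524370 to 74524749 on chromosome 2, with a score of 25.1 (percentile 99.98 of its list). The highest-scoring and widest NSC site of Hoxd lay at the same place, from 74524336 to 74524780 with a score of 11.9 (percentile 95.5). ESC had a site there with a score of 7.08 and MEF none. It was thus open in NSC in a cluster nearly closed in these cells. The highest ESC site of Hoxd, from 74529231 to 74531603 with a score of 12.0, was also its widest and met the widest EpiSC site of the cluster (74529004 to 74531311, score 9.52).

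In Hoxb the highest ESC score was 21.6 at a narrow site of 191 bp, from 96140191 to 96140381 on chromosome 11, open in no other list. The highest EpiSC site, from 96164387 to 96166157 with a score of 12.6, was also open in ESC and MEF, and the highest MEF site, from 96169233 to 96170050 with 11.8, also in EpiSC. The EpiSC run of sites covering the most bases, with gaps of at most 500 bp, lay at the Hoxb13 end. There 9 sites covered 5603 bp of the 7769 bp from 96051318 to 96059086. All 4 NSC sites of Hoxb overlapped an EpiSC site, and the highest of them, from 96101522 to 96101678, had a score of 4.72, at percentile 59.9 of its list.

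In Hoxc the highest ESC site, from 102796867 to 102798660 on chromosome 15 with a score of 13.9, lay within the widest EpiSC site, from 102796121 to 102798771 with 9.66, and was open in MEF too. The highest EpiSC site, from 102750283 to 102751687 with 13.1, lay toward Hoxc13 and was shared with ESC alone. The highest and widest MEF site, from 102843246 to 102844400 with 9.94, lay toward Hoxc4 within an EpiSC run of 7 sites that covered 5375 bp. NSC had 1 high-scoring site of its own in Hoxc, from 102774852 to 102775226 with a score of 13.4 (percentile 97.2). Of the other 3 NSC sites in Hoxc, the widest, from 102817878 to 102818391, was open in all lists. Single narrow sites have no replicate check.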

How the data were processed

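FAIRE-seq libraries were amplified by PCR, selected on agarose gels and sequenced on an Illumina Genome Analyzer, per the labels' protocols. Per the submitters' processing notes, CASAVA 1.8 is the tool named and mm9 the build. The authors deposited 1 list of sites per cell type, with a score per site and a display value equal within 1 to 100 times that score, up to a cap of 1000. The aligner, caller settings, pooling of replicates, use of the control and derivation of the score: not given in the sources used here. Files for the other 6 samples were not analysed here.

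Starts were taken as 0-based, as in BED files, and are printed 1-based. A site was a member if it shared at least 1 bp with an interval. Covered shares are merged bases of sites over interval length. Windows of each cluster's length were tiled from the start of each of the 19 autosomes, ending where the lists end. Shares have exact (Clopper-Pearson) 95% intervals. Depth is unknown, so longer lists may be deeper ones. The sites named are, for each cluster and list, the highest-scoring, the widest and the run (gaps up to 500 bp) covering the most bases, and per cluster the longest region of all lists and the longest stretch of none; other single sites, the 4 segments of each cluster, the stretches free of one list and the promoters were chosen after the values were seen. The members and lists were chosen with earlier results of these data known. Single genes have no values, since no annotation of mm9 was used. Alternatives were other flank widths, limits, overlap rules, merging of near sites, use of only the best-scoring 50% of each list, and lists of equal length (387312 sites). Tables were handled with pandas 2.3.3 and numpy 2.4.6 under Python 3.11.15, intervals came from scipy 1.17.1 and figures from matplotlib 3.10.9. Overlaps were checked on simulated data and against bedtools 2.31.1, with equal counts.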

Additional observations from a re-analysis of the deposited data

Results flagged for a closer look

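The NSC share of covered bases was lower in the cluster than in its flanks at Hoxb (ratio 0.108), Hoxc (0.0690) and Hoxd (0.245), while the ESC, EpiSC and MEF ratios of these clusters were above 1 with flanks of 200 kb and all sites. Under other settings the ESC ratio of Hoxb was 0.979 (flanks of 500 kb) and the MEF ratio of Hoxc 0.858 (the 50% of the list with the highest scores). With 1 list per cell type the difference between cell types was not tested. At Hoxa the NSC ratio was 1.16, and 0.884 by number of sites, where the other lists stayed above 1.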

How the results depend on the processing

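No paired analysis was possible because 1 list stands for each cell type, and no replicate could be left out. Of the ratios of cluster to flanks, 86 of 96 alternative values stayed within 1.5 times, as did 47 of 48 numbers of sites and both numbers of regions open in all lists. The NSC ratio of Hoxb was 0.252 and 0.0553 with flanks of 100 and 500 kb, 0.0313 in the 50% of the list with the highest scores, 0.0496 with lists of equal length, where 2 NSC sites were left in Hoxb, and 0.216 by midpoints. That of Hoxc was 0.137 with flanks of 100 kb, 0.112 in the same 50% and 0.127 by midpoints. The MEF ratio of Hoxc was 0.858 in that 50%, and the ESC ratio of Hoxd 2.55 by midpoints. The share of Hox sites overlapping any other list (79.6% in ESC against 60.0% of all its sites, 73.9% in EpiSC against 69.3%) was 70.4% and 65.2% in that 50%, and 67.5% in EpiSC when 50% of the shorter site was required. Of the shares overlapping 1 second list, 73 of 84 alternative values lay within the exact interval; the share of ESC sites in MEF (38.5%) was 22.2% in that 50% and 31.5% when 50% of the shorter site was required, and that of EpiSC in MEF (39.1%) 27.6% and 32.5%. On the other side of 1 lay the ESC ratio of Hoxb (0.979, flanks of 500 kb) and the NSC ratio of Hoxa (0.884, midpoints). The NSC ratios of Hoxb and Hoxc rest on 4 sites each. Fewer sites enter by construction in that 50% and in lists of equal length. Elsewhere the cause was not tested. Overlap shares over all sites of a list were not computed under the alternative settings.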
